A study of Homo sapiens with 18 samples.

Results

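The 43 genes described here encode the machinery of DNA replication together with targets of the E2F transcription factors. They were found by gene symbol. Each symbol matched 1 of the 60668 rows of the count table, and all 43 were among the 18151 genes that passed the filter on low counts, so no member was lost. The cells were IMR90, a primary line of human fetal lung fibroblasts of wild type genotype, either proliferating (Prolif) or senescent after ionizing radiation (IR). Cells of each state received RG7388 (also called idasanutlin), HDM201 (also called siremadlin) or DMSO, the solvent. Both compounds are inhibitors of MDM2 (MDM2i), the ligase that tags p53 for destruction. This gave 6 groups, Prolif_DMSO, Prolif_RG7388, Prolif_HDM201, IR_DMSO, IR_RG7388 and IR_HDM201, each with 3 libraries of polyadenylated RNA. IR cells were given MDM2i or solvent from day 4 after irradiation. Their medium was changed on day 10, and they were harvested on day 11, after 7 days of treatment. For Prolif cells neither the length of treatment nor the day of a media change is given in the labels. The compounds were not given at equal doses, so differences between them belong to these treatments and not to the molecules at matched dose. The study treats each culture well as a replicate, and the labels do not say whether wells were irradiated separately, so p-values measure the spread between these libraries only, which may be technical.

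As background, p53 activates CDKN1A, whose product p21 blocks the cyclin-dependent kinases that phosphorylate RB and its relatives. Unphosphorylated RB proteins hold E2F factors in repressive complexes, among them the DREAM complex, at promoters of genes needed for S phase. In cycling cells this block is lifted late in G1 and E2F targets are transcribed. The MCM helicase, loaded on origins before S phase, is then activated, and the polymerases copy both strands. Fibroblasts made senescent by irradiation leave the cycle for good, and low levels of these transcripts are a usual mark of that state.

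Promoter sequences are shown because E2F binds a short element near the start site of many of these genes. RefSeq promoters (GRCh38.p14, 250 bases before to 50 after the start) were matched by symbol for 38 of the 43 genes, and those of GINS4, E2F8, MCM4, MCM5 and CCNE2 were not in the table used. Both strands were searched for TTTCCCGC, TTTCGCGC, TTTGCCGC and TTTGGCGC, which stand for the E2F element. Of the 38 genes, 21 (55.3%) held at least 1 of these words, compared with 3.99% of the 27305 genes in the promoter table. Among genes with a single promoter in the table the shares were 56.7% (17 of 30) and 3.18%. The members were listed as replication genes and E2F targets, so a share above that of all genes may come from this choice. Another element, TTTGAA, which stands for the CHR through which DREAM represses late cell cycle genes, was found in 2 of the 38 (5.26%, DUT and RRM1), compared with 18.2% of all genes. These words can overlap one another. A match describes the letters and does not show binding, and the lack of a match says only that these words are not in this window. Promoters of 6 members follow, from 170 bases before to 30 after the start, 5′ to 3′ on the strand of the gene, with E2F words in capitals. MCM6, a helicase subunit (chr2:135876414-135876613, minus strand), was chosen for its 2 stretches in which words of both strands overlap. E2F1 (chr20:33686356-33686555, minus strand) and CDC6 (chr17:40287709-40287908, plus strand) are long-known E2F targets, PCNA (chr20:5126593-5126792, minus strand) had the smallest fall after irradiation, POLE (chr12:132687313-132687512, minus strand) had a fold change close to 0 with RG7388 in IR cells, and CCNA2 (chr4:121823854-121824053, minus strand) fell the most after irradiation while its window held none of the words.
MCM6: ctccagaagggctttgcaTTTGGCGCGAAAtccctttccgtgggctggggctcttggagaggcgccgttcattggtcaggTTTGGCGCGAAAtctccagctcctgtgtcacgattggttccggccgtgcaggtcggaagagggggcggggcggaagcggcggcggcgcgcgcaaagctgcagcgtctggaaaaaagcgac
E2F1: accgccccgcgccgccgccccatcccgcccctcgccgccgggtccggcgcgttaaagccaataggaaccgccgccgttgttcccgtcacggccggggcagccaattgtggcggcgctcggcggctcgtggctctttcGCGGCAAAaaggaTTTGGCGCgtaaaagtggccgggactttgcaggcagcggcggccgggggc
CDC6: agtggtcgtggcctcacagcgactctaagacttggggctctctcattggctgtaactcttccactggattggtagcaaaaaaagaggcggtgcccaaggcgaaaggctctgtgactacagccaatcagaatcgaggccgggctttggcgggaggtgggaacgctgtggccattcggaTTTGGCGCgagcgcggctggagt
PCNA: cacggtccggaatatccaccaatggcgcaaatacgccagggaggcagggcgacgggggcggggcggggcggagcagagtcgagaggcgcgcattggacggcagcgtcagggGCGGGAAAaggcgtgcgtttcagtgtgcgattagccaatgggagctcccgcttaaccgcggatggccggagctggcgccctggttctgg
POLE: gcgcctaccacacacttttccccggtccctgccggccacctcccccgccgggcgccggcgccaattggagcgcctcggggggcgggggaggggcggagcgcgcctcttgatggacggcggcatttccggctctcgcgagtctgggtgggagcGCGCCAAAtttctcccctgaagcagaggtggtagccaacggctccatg
CCNA2: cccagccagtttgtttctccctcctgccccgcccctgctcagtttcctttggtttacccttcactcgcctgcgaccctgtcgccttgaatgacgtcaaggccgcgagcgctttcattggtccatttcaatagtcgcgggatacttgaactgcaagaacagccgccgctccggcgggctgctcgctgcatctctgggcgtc

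**Figure D1:**
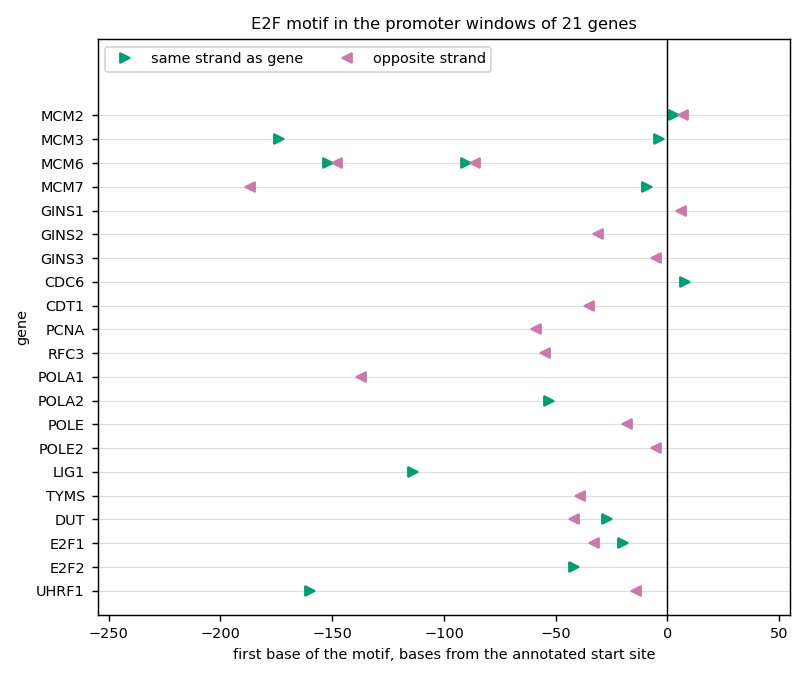
Position of each E2F word in the promoters of the 21 genes that hold one. The x axis is the distance in bases from the annotated start site to the first base of the word, and the triangles point right for the strand of the gene and left for the opposite strand. MCM6 has 4 words, and those of CDC6, GINS1 and MCM2 lie just after the start, at 8 bases in CDC6, at 6 in GINS1 and at 3 and 7 in MCM2.

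The position plot shows words from 187 bases before the start (MCM7) to 8 after it (CDC6). They lay 59 bases before the start in PCNA, 18 before it in POLE, and 33 and 20 before it in E2F1, and farther off in MCM3 (174, with another at 4), UHRF1 (160, in its second promoter), POLA1 (137) and LIG1 (114). Positions were not compared with those in other genes. Genes with and without an E2F word had nearly the same median change after irradiation (-2.23 for 21 genes and -2.25 for 17, log2 scale). In IR cells given RG7388 the medians were -0.50 and -0.67.

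Libraries held 21609198 to 66647700 counted reads. Levels are given as CPM, read counts scaled to the size of each library after TMM normalization. IR_DMSO replicate 1 and Prolif_HDM201 replicate 3 stood apart from their groups over all genes, and results that rest on them are given without them as well. Their root mean square residuals (log2) were 0.402 and 0.466, and those of IR_HDM201 replicates 1 and 2 were 0.386 and 0.395, against 0.242 to 0.364 in the others. CDKN1A, the direct p53 target, was higher in Prolif cells with RG7388 (log2 fold change 1.69 ± 0.11, adjusted p = 3.52e-09) and HDM201 (1.44 ± 0.11, adjusted p = 8.16e-08), whereas in IR cells, where it was already 7.87-fold above Prolif_DMSO, it was not called with RG7388 (0.21, adjusted p = 0.158) or HDM201 (-0.04, adjusted p = 0.820). All p-values from edgeR are adjusted over the 18151 genes tested, a gene was called at an adjusted p under 0.05, and errors beside fold changes are standard errors (SE). The sum of 8 fibroblast markers was 44070 to 49750 CPM in Prolif_DMSO and 17170 to 25370 in IR_DMSO, where 7 of 8 were called lower. In IR cells it was 24250 to 26260 with RG7388, where 4 of 8 were called higher and 1 lower, and 22300 to 22980 with HDM201, and its part in the results was not tested. Summed over 4 genes each, endothelial markers were at 0.606 to 2.98 CPM and leukocyte markers at 0.847 to 2.61 CPM. The sum of 6 epithelial markers was 265.7 to 282 CPM in Prolif_DMSO, 310 to 336.4 in Prolif_RG7388 and 271.5 to 341.8 in Prolif_HDM201. In IR cells it was 152.5 to 168.9 CPM with DMSO, 361.5 to 422.1 with RG7388 and 285.8 to 400.8 with HDM201, and its part in the results was not tested either. MKI67, a marker of cycling cells, was lower in IR_DMSO than in Prolif_DMSO (-4.13 ± 0.39), and MDM2, itself a p53 target, was higher (2.17).

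The first comparison asked how far replication genes were turned down in senescent cells. Summed over the 43 genes, the level was 3208 ± 118 CPM in Prolif_DMSO (SD, n = 3) and 759 ± 50.3 CPM in IR_DMSO. Of the 43 genes, 42 fell and 0 rose, where 25.3% of all genes tested were called lower and 26.3% higher. The median log2 fold change of the members was -2.23, beside 0.05 over all genes. The fall took in members of every role, and in each of the 42 genes the 3 IR_DMSO libraries lay below the 3 Prolif_DMSO libraries, which was so for 29.4% of all genes. In bulk RNA, fewer cells in S phase and less RNA in each cell cannot be told apart.

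**Figure D2:**
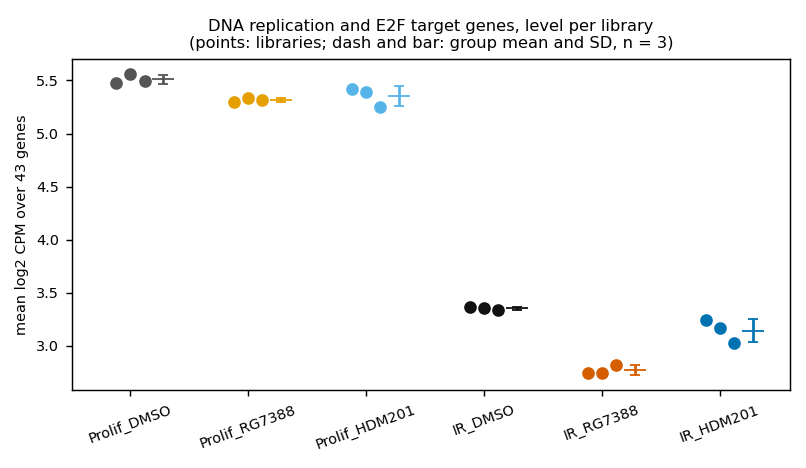
Mean log2 CPM over the 43 genes in each library (points), with the group mean and SD beside them (dash and bar, n = 3). The mean is 5.51 in Prolif_DMSO, 5.32 and 5.36 in proliferating cells with RG7388 and HDM201, 3.36 in IR_DMSO, 2.77 in IR_RG7388 and 3.15 in IR_HDM201.

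The plot of the level per library shows the same order, with all 9 IR libraries far below all 9 Prolif libraries. Within IR cells the 3 IR_RG7388 libraries were the lowest, and IR_HDM201 had the widest spread (SD 0.109).

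The helicase genes fell together. MCM2 to MCM7 encode the ring that unwinds DNA, and all 6 were lower, from MCM3 at -1.69 ± 0.11 to MCM7 at -2.41 ± 0.11. MCM7 stood at 264, 292 and 259.7 CPM in Prolif_DMSO and at 52.0, 51.4 and 49.7 CPM in IR_DMSO. The irradiated libraries lay close together, 5.33-fold lower. MCM3 stood at 121, 124 and 122 CPM and then at 44.04, 35.6 and 33.9 CPM, again with no overlap. All 6 genes that activate the helicase fell as well. MCM10, which helps the ring to open, fell the most of them, at 33.1, 31.8 and 35.0 CPM before and 3.21, 3.58 and 3.69 CPM after irradiation (-3.25 ± 0.17). CDC45, which with MCM and GINS forms the active helicase, fell 6.93-fold (-2.79 ± 0.13), and GINS4, a subunit of GINS, fell least (-1.89 ± 0.12), from 45.2, 50.7 and 42.0 CPM to 11.8, 12.9 and 12.4 CPM. GINS4 and MCM2 share 23.4% and 23.6% of their exon bases with genes on the other strand, and the strand setting of the counting is not known here, so their reads cannot be told apart from those.

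All 4 genes of origin licensing, the step that loads MCM rings before S phase, were lower. CDT1, the loader that geminin restrains, went from 51.2, 56.8 and 47.7 CPM to 4.82, 8.45 and 6.28 CPM (-3.00 ± 0.16). ORC1, the subunit of the origin recognition complex that cycles with the cell, fell 7.48-fold, CDC6, the loading ATPase, 4.47-fold, and ORC6 3.87-fold. CDT1 varied more between the irradiated libraries than ORC1 did (2.91, 3.06 and 2.94 CPM).

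PCNA, the sliding clamp that tethers polymerases and also serves in DNA repair, had the smallest fall. It stood at 98.0, 113 and 108 CPM in Prolif_DMSO and at 91.6, 79.6 and 74.5 CPM in IR_DMSO. The groups did not overlap, but the gap was small (-0.38 ± 0.10, adjusted p = 0.00250). The call was lost with library totals in place of TMM (-0.08, adjusted p = 0.482) and with limma on FPKM (adjusted p = 0.306 to 0.375). By contrast the 4 RFC genes, which encode subunits of the loader that opens the clamp, fell by 1.46 (RFC2) to 2.29 (RFC5) on the log2 scale. RFC5 stood at 24.0, 28.7 and 26.2 CPM in Prolif_DMSO and at 4.34, 5.07 and 6.71 CPM in IR_DMSO. Scaled to exon length, PCNA was the second most abundant member in Prolif_DMSO (75.8 CPM per kilobase, behind TK1 at 106.5) and the first in IR_DMSO (58.4, followed by RRM1 at 16.8).

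Both enzymes that join lagging strand fragments fell, the flap nuclease FEN1 by 2.06 and the ligase LIG1 by 1.91 on the log2 scale. FEN1 went from 104, 117 and 112 CPM to 34.3, 21.6 and 23.9 CPM, with IR_DMSO replicate 1 the highest of its group. The 6 polymerase and primase genes were all lower, from POLA2 (-1.69 ± 0.16), which shares 21.3% of its exon bases with other genes, to POLE2 (-2.68 ± 0.25). POLE, the catalytic subunit of the leading strand polymerase, stood at 91.3, 95.1 and 87.4 CPM and then at 15.5, 17.9 and 18.2 CPM. That is a 5.31-fold fall with no overlap between the groups.

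Genes that supply nucleotides fell unequally. TK1, the thymidine kinase of S phase (chromosome 17, 78174091 to 78187233, hg38), stood at 186, 219 and 184 CPM in Prolif_DMSO and at 28.4, 24.2 and 24.6 CPM in IR_DMSO (-2.93 ± 0.13). RRM2, the regulated subunit of ribonucleotide reductase (chromosome 2, 10120698 to 10211725), stood at 373, 411 and 396 CPM and then at 77.9, 67.6 and 67.8 CPM (-2.47 ± 0.13). Its partner RRM1 fell less (-1.72 ± 0.10), as did the thymidylate synthase TYMS (-1.70 ± 0.12). DUT, which keeps uracil out of DNA, fell by 1.23 on the log2 scale, the least of the 5, from 70.9, 74.3 and 66.0 CPM to 38.4, 27.0 and 24.7 CPM.

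Among the factors that drive entry to S phase, cyclin A2 (CCNA2, chromosome 4, 121816444 to 121823883) fell the most of all 43 genes. It stood at 164, 152 and 163 CPM in Prolif_DMSO and at 13.2, 16.5 and 14.5 CPM in IR_DMSO, a 10.9-fold difference (-3.44 ± 0.13, adjusted p = 1.32e-15). E2F8, a repressor of the family that is itself an E2F target, fell 10.5-fold to 0.871, 0.969 and 1.40 CPM, while the activators E2F1 (-1.76 ± 0.11) and E2F2 (-2.26 ± 0.27) fell less. Cyclin E1 (CCNE1, chromosome 19, 29811991 to 29824312), which drives the G1 to S transition, was the 1 gene not called. It stood at 6.66, 7.80 and 5.74 CPM in Prolif_DMSO and at 8.74, 7.80 and 8.43 CPM in IR_DMSO. The lowest irradiated library matched the highest proliferating one to 3 digits (0.31 ± 0.15, adjusted p = 0.0792), and CCNE1 was called higher with library totals (0.60, adjusted p = 0.00107), with limma on FPKM (0.57 to 0.68) and without Prolif_DMSO replicate 2 (0.41, adjusted p = 0.0450). Its close relative CCNE2 fell (-1.34 ± 0.18).

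The 3 chromatin genes fell. UHRF1, which recruits the maintenance methyltransferase to new DNA, went from 132, 136 and 137 CPM to 17.003, 12.9 and 15.4 CPM (-3.16 ± 0.13). CHAF1A and CHAF1B, subunits of the chaperone that places histones behind the fork, fell by 2.17 and 2.51 on the log2 scale.

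**Figure D3:**
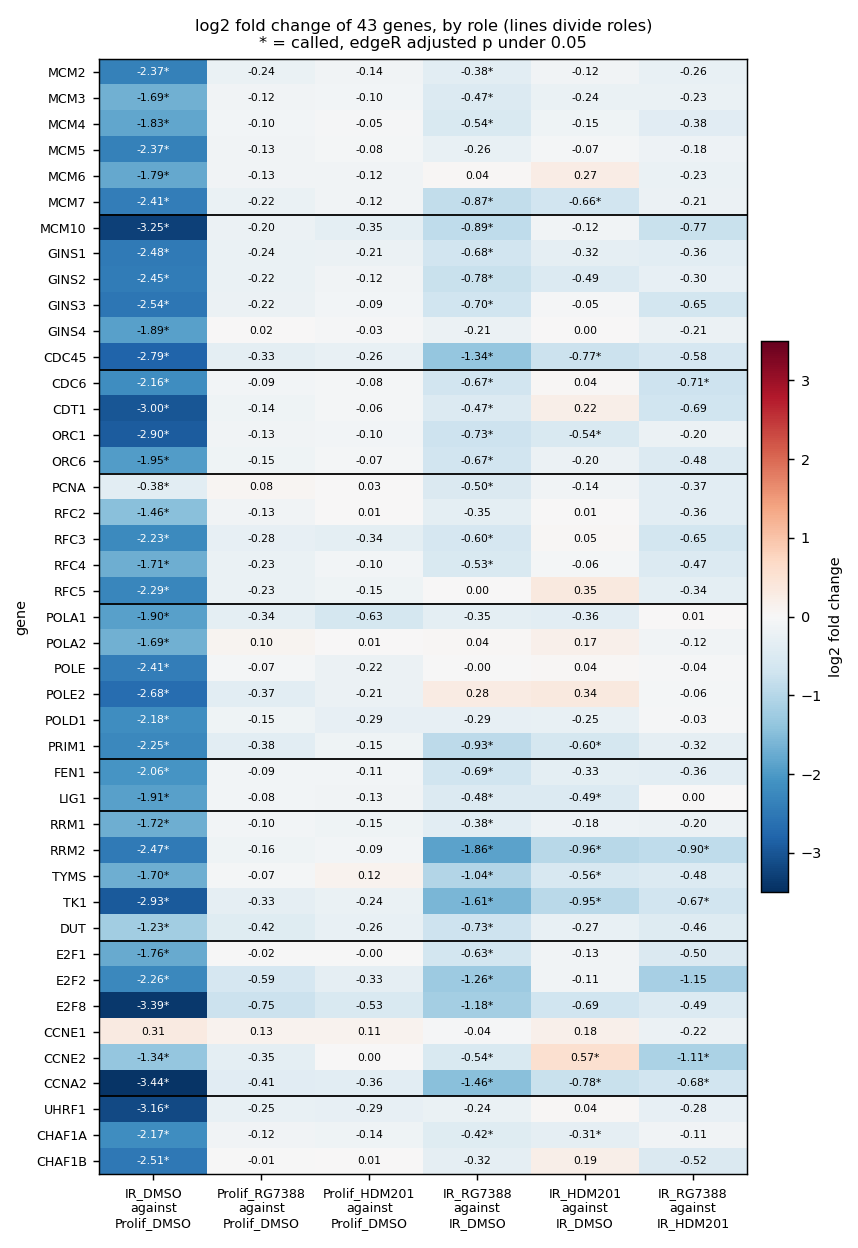
log2 fold change of each of the 43 genes (rows, divided by role) in 6 comparisons (columns), with an asterisk where edgeR called the gene. The first column has 42 asterisks and is pale at PCNA (-0.38) and CCNE1 (0.31), columns 2 and 3 have no asterisk, column 4 has 30, column 5 has 11 and column 6 has 5.

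Whether MDM2i lowered these genes in proliferating cells was asked next. With RG7388, edgeR called 0 of the 43 lower and 0 higher, where 0.342% of all genes were called lower and 1.2% higher. At an unadjusted p under 0.05, 10 were lower and 0 higher, but the share of all genes at that cut was not counted. DESeq2 called 2 (CCNA2 and E2F8), where 188 of 13576 genes were lower, and limma on FPKM 0. The sum went from 3208 ± 118 to 2856 ± 83.8 CPM, 39 of 43 fold changes were negative (median -0.15), and in 20 of 43 genes every RG7388 library lay below every DMSO library, which was so for 10.6% of all genes. E2F8 had the smallest p, with 11.8, 10.9 and 11.0 CPM in Prolif_DMSO and 7.17, 4.98 and 7.88 CPM in Prolif_RG7388 (-0.75 ± 0.195, adjusted p = 0.0534). CCNA2 stood at 120.2, 108 and 134 CPM with RG7388 (-0.41 ± 0.12, adjusted p = 0.0996) and DUT at 50.9, 55.1 and 52.2 CPM, against 70.9, 74.3 and 66.0 CPM with DMSO (-0.42 ± 0.13, adjusted p = 0.118). Neither overlapped its control. The count was 8 (CCNA2, CDC45, DUT, E2F2, E2F8, PRIM1, TK1 and UHRF1) when only the 6 libraries compared were fitted, where 462 of 15178 genes were lower. It was 5 (CCNA2, CDC45, DUT, E2F8 and TK1) without both libraries that stood apart, which are not among those 6. In that run 481 of 18341 genes were lower.

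With HDM201 the proliferating cells gave 0 lower and 0 higher, where 0.154% of all genes were called lower and 0.545% higher. At an unadjusted p under 0.05, 8 were lower and 0 higher, but the share of all genes at that cut was not counted. DESeq2 called 1 (POLA1), where 88 of 13576 genes were lower, and limma on FPKM 0. In 12 of 43 genes every HDM201 library lay below every DMSO library, beside 6.66% of all genes, and the median fold change was -0.12. POLA1, the catalytic subunit of the polymerase that starts each strand, had the smallest p, at 25.7, 26.5 and 30.1 CPM with DMSO and 16.4, 14.2 and 22.3 CPM with HDM201 (-0.63 ± 0.18, adjusted p = 0.134). CCNA2 stood at 116, 116 and 141 CPM (-0.36 ± 0.12). Without Prolif_HDM201 replicate 3, 3 genes were called lower, POLA1 (-0.83, adjusted p = 0.00885), CCNA2 (-0.45, adjusted p = 0.0217) and RFC3 (-0.55, adjusted p = 0.0236). The share of all genes in that run was not counted. E2F8 joined them without both libraries that stood apart (-0.61, adjusted p = 0.0341). There 1244 of 18341 genes were called lower, so the count of members lies close to that share.

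Between the compounds in proliferating cells edgeR called 0 of 43 members and 0 of 18151 genes (0% in either direction), DESeq2 and limma called 0 members as well, and 0 members had an unadjusted p under 0.05. In 6 of 43 genes every RG7388 library lay below every HDM201 library, beside 3.5% of all genes. The smallest p belonged to CCNE2 (-0.36 ± 0.17, RG7388 relative to HDM201). Over the 43 genes the 95% intervals of the difference reached from -0.79 to 0.67, and differences of that size cannot be told from none at this spread.

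The next comparison asked whether RG7388 changed these genes in cells that were already senescent. Low after irradiation, most were lower still with the compound. Of the 43 genes 30 fell and 0 rose, where 11.9% of all genes were called lower and 10.9% higher, with a median of -0.54 beside -0.03 over all genes. The sum was 759 ± 50.3 CPM with DMSO and 498 ± 10.6 CPM with RG7388. In 34 of 43 genes every RG7388 library lay below every DMSO library, beside 22.6% of all genes. By role, the fall took in all 5 genes of nucleotide supply, all 4 of licensing, both of fragment joining, 5 of 6 of helicase activation, 5 of 6 E2F and cyclin genes, 4 of 6 MCM genes, 3 of 5 of the clamp and loader, 1 of 3 chromatin genes and 1 of 6 polymerase genes.

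RRM2 fell the most. It stood at 77.9, 67.6 and 67.8 CPM in IR_DMSO and at 21.6, 18.6 and 18.4 CPM in IR_RG7388, a 3.63-fold difference (-1.86 ± 0.13, adjusted p = 4.54e-10) that left it at 4.97% of the Prolif_DMSO mean. TK1 went from 28.4, 24.2 and 24.6 CPM to 7.92, 7.77 and 9.62 CPM (-1.61 ± 0.13, adjusted p = 2.22e-09). For both, the highest RG7388 library lay well below the lowest DMSO library. TYMS fell from 21.7, 26.2 and 24.5 CPM to 11.98, 11.8 and 11.6 CPM (-1.04 ± 0.12). Of the TYMS exon bases 47.9% are shared with genes on the other strand (ENOSF1 and TYMSOS), and whether the counting used strand is not given in the sources used here, so its reads cannot be told from theirs.

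CCNA2 fell from 13.2, 16.5 and 14.5 CPM to 5.48, 5.04 and 5.50 CPM (-1.46 ± 0.13, adjusted p = 2.08e-08). CDC45 fell from 5.61, 4.60 and 4.74 CPM to 1.78, 2.01 and 2.15 CPM (-1.34 ± 0.14, adjusted p = 1.03e-07). Neither overlapped. E2F2 (-1.26 ± 0.33, adjusted p = 0.00689) and E2F8 (-1.18 ± 0.28, adjusted p = 0.00305) fell from levels near 1 CPM, while E2F1 fell from 14.5, 13.5 and 12.4 CPM to 8.90, 7.98 and 9.15 CPM (-0.63 ± 0.11). MCM7 was the subunit of the MCM ring that fell the most, at 26.5, 27.5 and 29.997 CPM (-0.87 ± 0.11), while MCM5 (-0.26) and MCM6 were not called. MCM5 was called lower with library totals (-0.44, adjusted p = 0.00141), with limma on FPKM (0.0131 to 0.0192) and without both libraries that stood apart (-0.34, 0.00741). GINS4, also not called in the main run, was called lower with library totals (-0.40, adjusted p = 0.00609) and with limma on FPKM (0.0183 to 0.022). MCM6 was at 21.6, 22.9 and 20.9 CPM with RG7388 and 23.4, 21.6 and 18.4 CPM with DMSO (0.04 ± 0.11, adjusted p = 0.839).

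PCNA, which was lowered least by irradiation, was at 56.9, 56.1 and 60.3 CPM with RG7388 (-0.50 ± 0.10, adjusted p = 0.000534), below all 6 DMSO libraries of both states. Of the licensing genes, CDC6 fell by 0.67, ORC1 by 0.73, ORC6 by 0.67 and CDT1 by 0.47 on the log2 scale. CDT1 overlapped between groups, with 4.82 CPM in IR_DMSO replicate 1 and 5.19 CPM in IR_RG7388 replicate 3. ORC6 went from 10.9, 10.1 and 9.51 CPM to 6.51, 6.25 and 6.35 CPM. FEN1 (-0.69 ± 0.14) and LIG1 (-0.48 ± 0.11) fell as well.

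Of the 6 polymerase and primase genes, 5 were not called. POLE was at 15.5, 17.9 and 18.2 CPM with DMSO and at 18.7, 16.7 and 15.9 CPM with RG7388, with overlapping ranges (-0.00 ± 0.11, 95% interval -0.23 to 0.23, adjusted p = 0.986). POLA2 (0.04), POLE2 (0.28), POLD1 (-0.29) and POLA1 (-0.35) were not called either, and PRIM1, the primase, fell (-0.93 ± 0.20, adjusted p = 0.00152). POLD1 was called lower with library totals (-0.47, adjusted p = 0.00518), with limma on FPKM (adjusted p = 0.0309 to 0.0337) and without both libraries that stood apart (-0.37, adjusted p = 0.0145), so the count of this role depended on the setting. RFC5 (0.00 ± 0.16) and UHRF1 (-0.24 ± 0.12, adjusted p = 0.173) were not called. UHRF1 was called lower with library totals (-0.43, adjusted p = 0.0115) and with limma on FPKM at a pseudocount of 1 and no FPKM filter (-0.31, 0.0459). A p above the threshold does not show that these genes were unaltered.

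Of the 30 calls, 6 ended when 1 library was left out. MCM2 ended without IR_DMSO replicate 1 or 2 or without any single RG7388 library (adjusted p = 0.0602 to 0.126), CDT1 without IR_DMSO replicate 2 or 3 or any single RG7388 library (0.0502 to 0.332), and CCNE2 under the same 5 choices (0.0868 to 0.242). The call on E2F2 was lost with limma on log2 FPKM (-0.12, adjusted p = 0.327 with a pseudocount of 1, and -0.66, 0.0778 with 0.1), and with the replicate block CCNE2 was lost (-0.53, adjusted p = 0.0536). RFC2, not called here (-0.35, adjusted p = 0.0520), was called with the block (-0.34, 0.0391), with DESeq2 (-0.35, 0.0351) and with library totals (-0.54, 0.00185). RFC4 ended without IR_DMSO replicate 1 (0.0972) or IR_RG7388 replicate 1 or 2 (0.0600 and 0.0506), RFC3 without IR_RG7388 replicate 2 (0.0836), and RRM1 without IR_DMSO replicate 1 (0.0715). Genes that respond to RNA handling (FOS, JUN, heat shock genes and the like) moved in the same comparison, with 7 of 10 lower and 1 higher and summed CPM of 601.9 to 620.4 with DMSO and 540.7 to 565.9 with RG7388, and their part in the result was not tested.

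HDM201 in irradiated cells gave a smaller set. It lowered 10 of 43 genes and raised 1, where 11.3% of all genes were called lower and 9.96% higher, with a median of -0.14 beside -0.02 over all genes. In 10 of 43 genes every HDM201 library lay below every DMSO library, beside 19.1% of all genes, so the count of members lies close to the background. The 10 were RRM2, TK1 and TYMS (nucleotide supply), MCM7, CDC45, ORC1, PRIM1, LIG1, CCNA2 and CHAF1A. With library totals in place of TMM the count was 22, where 3354 of 18151 genes were called lower. The median over all genes then went from -0.02 to -0.17.

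RRM2 stood at 45.7, 34.8 and 28.3 CPM with HDM201 (-0.96 ± 0.13, adjusted p = 8.34e-06) and TK1 at 14.9, 11.3 and 13.7 CPM (-0.95 ± 0.13, adjusted p = 6.63e-06). CCNA2 was at 10.2, 7.995 and 7.11 CPM (-0.78 ± 0.13, adjusted p = 0.000122), and MCM7 at 29.6, 35.3 and 32.3 CPM (-0.66 ± 0.11, adjusted p = 0.000113). All of these lay below the DMSO libraries, and IR_HDM201 replicate 1 was the highest of its group for RRM2, TK1 and CCNA2. CCNE2 went the other way, from 2.00, 3.38 and 2.86 CPM to 4.61, 4.09 and 3.38 CPM (0.57 ± 0.18, adjusted p = 0.0264). The groups met at 3.38 CPM, and the call ended without IR_DMSO replicate 1 (0.39, adjusted p = 0.133), IR_HDM201 replicate 1 (0.46, adjusted p = 0.132) or IR_HDM201 replicate 2 (0.58, adjusted p = 0.0563) and with library totals (0.43, adjusted p = 0.108). Without IR_DMSO replicate 3, RFC5 was called higher as well (0.53, adjusted p = 0.0304). Without IR_DMSO replicate 1, MCM6 was called higher (0.35, adjusted p = 0.0431), and so it was without both libraries that stood apart (0.35, adjusted p = 0.00556), where CCNE2 was lost (0.39, adjusted p = 0.0734). CCNE2 shares 37.1% of its exon bases with INTS8 and 1 other gene on the opposite strand.

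CDC6 (11.8, 11.7 and 10.8 CPM, 0.04 ± 0.12) and PCNA (72.7, 81.0 and 70.02 CPM, -0.14 ± 0.10) overlapped the DMSO libraries. Calls on ORC1 ended without IR_DMSO replicate 2 (adjusted p = 0.0659) or IR_HDM201 replicate 2 or 3 (0.0814 and 0.119), on PRIM1 without IR_DMSO replicate 2 or 3 (0.155 and 0.107) or IR_HDM201 replicate 2 or 3 (0.117 and 0.116), and on CHAF1A without any single IR_DMSO library (0.0547 to 0.210) or IR_HDM201 replicate 1 or 3 (0.164 and 0.168). The RNA handling genes were lower here too, 7 of 10, with 524 to 550.5 CPM in sum.

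**Figure D4:**
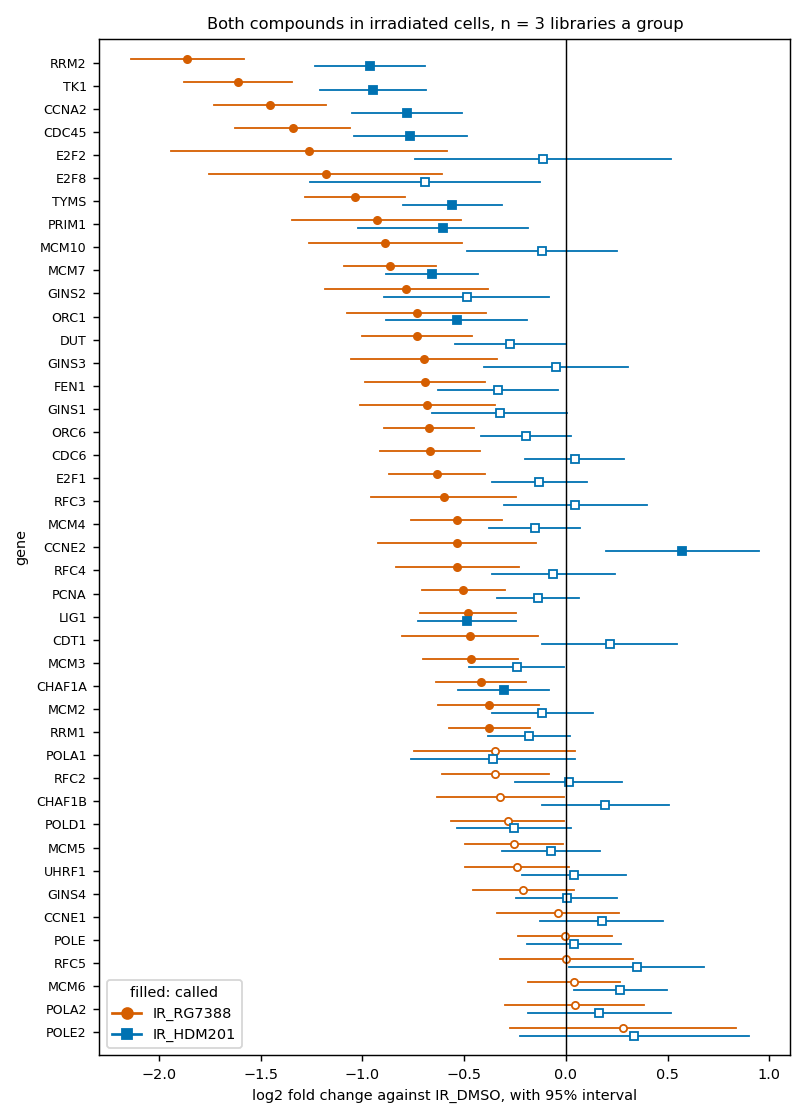
log2 fold change against IR_DMSO with its 95% interval for the 43 genes in IR_RG7388 (circles) and IR_HDM201 (squares), sorted by the RG7388 value. Filled symbols are called and open symbols are not. The genes run from RRM2 at -1.86 and -0.96 at the top, both called, to POLE2 at 0.28 and 0.34 at the bottom, neither called. CCNE2 is called in opposite directions.

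The forest plot places both compounds on the same axis. They share the IR_DMSO libraries, so the values are set side by side and the difference is taken from the direct comparison of IR_RG7388 with IR_HDM201. In that comparison 5 of 43 genes were lower with RG7388 and 0 higher, where 0.226% of all genes were called lower and 0% higher. The median was -0.36, and in 28 of 43 genes every RG7388 library lay below every HDM201 library, beside 9.5% of all genes. At an unadjusted p under 0.05, 25 were lower, but the share of all genes at that cut was not counted. No polymerase or primase gene was among the 28, whereas all 5 clamp and loader genes and all 5 of nucleotide supply were.

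The 5 genes called were CCNE2 (-1.11 ± 0.19, adjusted p = 0.00501), RRM2 (-0.90 ± 0.13, adjusted p = 0.00344), CDC6 (-0.71 ± 0.12, adjusted p = 0.00501), CCNA2 (-0.68 ± 0.14, adjusted p = 0.0279) and TK1 (-0.67 ± 0.13, adjusted p = 0.0211). CCNE2 stood at 1.88, 1.79 and 1.97 CPM with RG7388 and CDC6 at 6.36, 6.84 and 7.83 CPM, both well under the HDM201 libraries. Without IR_HDM201 replicate 1, the count was 0, with adjusted p of 0.0656 (RRM2), 0.0723 (CDC6), 0.0864 (CCNE2), 0.226 (TK1) and 0.326 (CCNA2). It was 2 without IR_RG7388 replicate 1 or replicate 2. When only these 6 libraries were fitted it was 0, where 0 of all 16106 genes were called lower. With DESeq2 it was 11 (89 of 16038 genes). It was 18 (182 of 18341 genes) without both libraries that stood apart, neither of which belongs to these groups. The call on CCNA2 also ended without IR_RG7388 replicate 3 (adjusted p = 0.114) and that on TK1 without IR_HDM201 replicate 3 (0.0847). Of the 43 fold changes 41 were negative. LIG1 (0.00, 95% interval -0.24 to 0.25), POLA1 (0.01, -0.40 to 0.41) and POLD1 (-0.03, -0.31 to 0.25) had the smallest differences.

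**Figure D5:**
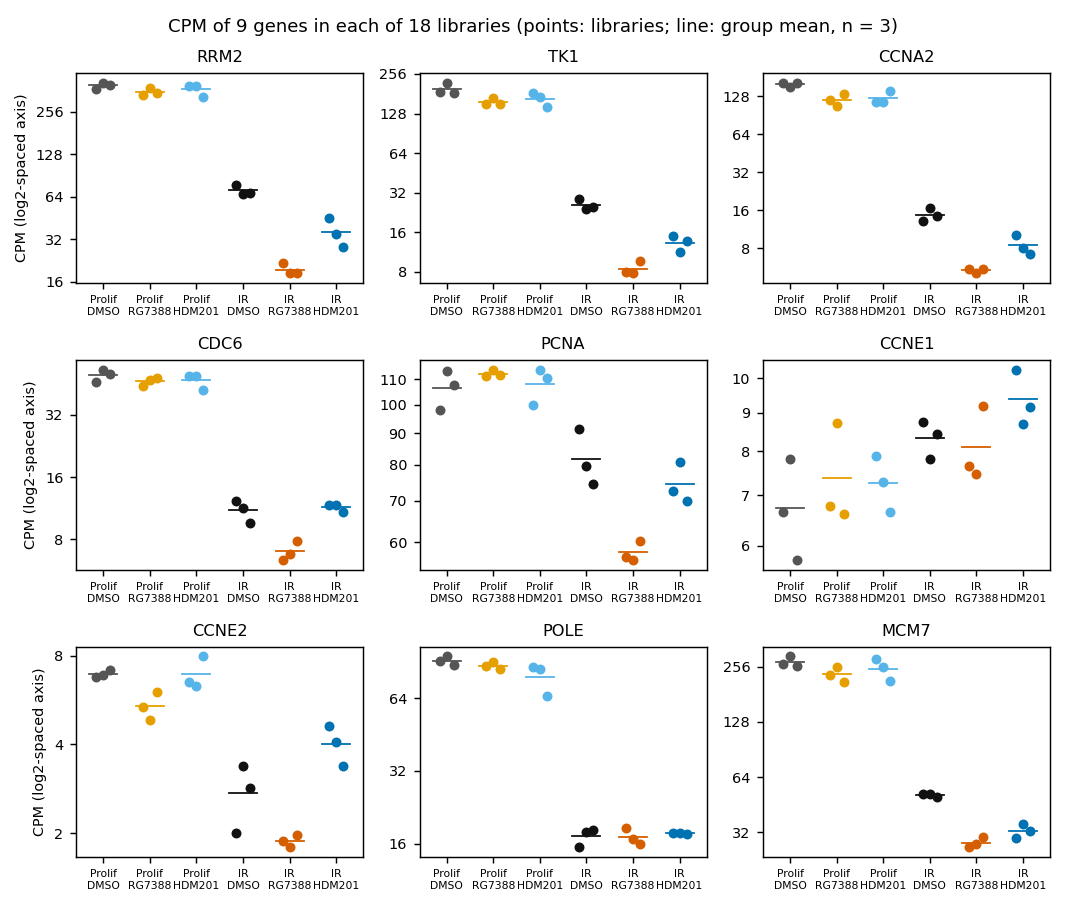
CPM of 9 genes in each of the 18 libraries (points) with group means (lines, n = 3), on log2-spaced axes that differ between panels. RRM2, TK1 and CCNA2 step down from IR_DMSO to IR_HDM201 to IR_RG7388, PCNA stays high in IR_DMSO at 74.5 to 91.6 CPM, POLE is at 15.5 to 18.7 CPM in all 9 irradiated libraries, and CCNE1 is highest in IR_HDM201.

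The panels of 9 genes show these patterns library by library, with CCNE1 between 5.74 and 10.3 CPM throughout. MCM7 overlapped between the MDM2i groups of IR cells (-0.21, 95% interval -0.44 to 0.02).

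Whether the effect of a compound differed between states was tested as an interaction. Since the length of treatment of Prolif cells is not in the labels, state and exposure cannot be told apart. For RG7388, 10 of 43 genes had a lower fold change in IR than in Prolif cells and 0 a higher one, where 5.27% of all genes were called lower and 2.2% higher. RRM2 led, with a difference of -1.71 ± 0.18 (adjusted p = 8.00e-07), and TK1 (-1.29), CCNA2 (-1.05), CDC45 (-1.01), TYMS (-0.97), MCM7, E2F1, PCNA, CDC6 and ORC6 followed. For HDM201, 4 of 43 were called lower (RRM2, TK1, TYMS and MCM7) and 0 higher, where 5.67% of all genes were called lower and 2.97% higher. This count is not far above that background, and 2 of these calls ended at an adjusted p under 0.01. At an unadjusted p under 0.05, 19 members were lower for RG7388 and 7 for HDM201. The share of all genes at that cut was not counted, so these counts cannot be set against a background. Without Prolif_HDM201 replicate 3 the count for HDM201 was 6 lower, with CDC45 (-0.60, adjusted p = 0.0139) and LIG1 (-0.50, adjusted p = 0.00699) added, and 1 higher (RFC3, 0.60, adjusted p = 0.0454). The shares of all genes in that run were not counted.

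Other genes of the pathway, 68 in all, were taken from a list of origin firing, fork, nucleotide and E2F or DREAM factors. After irradiation 50 fell and 6 rose (median -0.88), where 25.3% of all genes were called lower and 26.3% higher. MYBL2, the activator that replaces DREAM repression in S phase, fell by 4.15 and TICRR, which helps fire origins, by 3.44 on the log2 scale. Those that rose were the cyclins CCND1 (1.35), CCND2 (4.72) and CCND3 (0.88), the p53-induced reductase subunit RRM2B (2.82), the dNTP hydrolase SAMHD1 (1.15) and POLD4 (1.06). In IR cells RG7388 lowered 18 and raised 3, among them MYBL2 (-1.12 ± 0.13), the histone chaperone ASF1B (-1.10 ± 0.15), SAMHD1 (-1.06 ± 0.11) and CDK2 (-0.81 ± 0.09), where 11.9% of all genes were called lower and 10.9% higher. HDM201 lowered 9 and raised 4, where 11.3% and 9.96% of all genes were called lower and higher, and the lowered count lies close to that background. Between the compounds ASF1B (-1.07 ± 0.15, adjusted p = 0.00344) and MYBL2 (-0.77 ± 0.13, adjusted p = 0.00501) were lower with RG7388 and none higher. In Prolif cells RG7388 lowered DBF4 (-0.65) and MYBL2 (-0.46) and raised CCND1 (0.45) and CCND2 (1.34), and HDM201 raised CCND2 (1.11).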

How the data were processed

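Poly(A) RNA of 18 libraries (6 groups of 3) was sequenced. According to the study's methods the authors aligned reads to hg38 with STAR in 2-pass mode, counted reads per gene with HTSeq and computed FPKM with Cufflinks. The deposited counts are whole numbers of reads per gene that were not normalized, and the deposited FPKM values are fragments scaled to transcript length and to the depth of the library. For tool versions, the annotation release and the strand setting, nothing is given in the sources used here.

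Counts were analysed with edgeR 4.0.16 in R 4.3.3: 45 pseudoautosomal copies were left out, genes were filtered with filterByExpr by group, TMM factors were applied, and a quasi-likelihood model of the 6 groups was fitted over all 18 libraries (12 residual degrees of freedom), with p-values adjusted by Benjamini-Hochberg over 18151 genes. Library totals of 21609198 to 66647700 reads limit the precision of genes near 1 CPM. Effects of a compound were compared between states as an interaction. The alternatives were DESeq2 1.42.0, limma 3.58.1 on log2 FPKM, other scalings and filters, a replicate block, the compared groups only and libraries left out. Empty FPKM cells of genes with reads were treated as missing (5134 of 326718 cells).

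Gene positions came from GENCODE release 44, which held 99.46% of the gene IDs. The members and lists were chosen with earlier results of these data known. A rule picked members to be shown by library. It took those of each role with the largest and smallest change after irradiation, those with the smallest p in each role with a compound, and those called between compounds or states. Not all of these are shown by library: for MCM2, RFC3, POLE2, POLA2, PRIM1, LIG1 and CHAF1A no per library values are given. Related genes outside the 2 of each subgroup with the smallest p, and other members shown by library, were named after their values were seen.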

Additional observations from a re-analysis of the deposited data

Results flagged for a closer look

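For 14 results the effect of a compound differed between IR and Prolif cells in the interaction test of edgeR, given as the log2 fold change in IR cells minus that in Prolif cells, with SE. For RG7388 these were RRM2 (-1.71 ± 0.18, adjusted p = 8.00e-07), TK1 (-1.29 ± 0.17, 1.93e-05), CCNA2 (-1.05 ± 0.18, 0.000325), CDC45 (-1.01 ± 0.18, 0.000493), TYMS (-0.97 ± 0.16, 0.000304), MCM7 (-0.64 ± 0.15, 0.00814), E2F1 (-0.62 ± 0.16, 0.0144), PCNA (-0.58 ± 0.14, 0.00823), CDC6 (-0.57 ± 0.16, 0.0305) and ORC6 (-0.52 ± 0.15, 0.0295). For HDM201 they were RRM2 (-0.87 ± 0.18, 0.00270), TK1 (-0.70 ± 0.17, 0.0107), TYMS (-0.68 ± 0.16, 0.00942) and MCM7 (-0.54 ± 0.15, 0.0268). Of all genes tested, 5.27% were called lower in this test for RG7388 and 5.67% for HDM201, and the HDM201 count is not far above its share.

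Leaving out 1 library ended some of these calls. For RG7388, E2F1 ended without IR_RG7388 replicate 2 (adjusted p = 0.0718), and ORC6 without any single library except IR_DMSO replicate 3 (0.0588 to 0.0955). CDC6 ended without IR_DMSO replicate 1 or 2 (0.0843 and 0.0755), IR_RG7388 replicate 1 or 2 (0.132 and 0.0923), Prolif_DMSO replicate 1 or 3 (0.107 and 0.0649) or Prolif_RG7388 replicate 2 or 3 (0.0707 and 0.0957). For HDM201, MCM7 ended without any single IR_DMSO library (0.0501 to 0.0652), IR_HDM201 replicate 1 or 3 (0.0974 and 0.0697), Prolif_DMSO replicate 1 or 3 (0.0744 and 0.0854) or Prolif_HDM201 replicate 1 or 2 (0.0927 and 0.0692). The groups of 3 were too small for a test of single outlying libraries.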

How the results depend on the processing

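No member called in the main analysis turned direction under any alternative run. The cause of the changes that follow was not tested. After irradiation, members called higher were 0, but 1 with library totals and with limma on FPKM under both pseudocounts (1 and 0.1) and the FPKM filter. In those runs 7202 of 18151, 6412 and 6406 of 18043, and 5519 of 14239 genes were called higher. With 1 library left out the count was 0 to 1. In Prolif cells with RG7388, members called lower were 0, but 1 without a filter (125 of 50920 genes), 1 with at least 1 CPM in 3 libraries (94 of 14202) and 1 with the replicate block (52 of 18151). They were 8 with the compared groups only (462 of 15178), 2 with DESeq2 (188 of 13576) and 5 without both outlying libraries (481 of 18341). With HDM201 in Prolif cells they were 0, but 1 without a filter (51 of 50920 genes), 1 with DESeq2 (88 of 13576) and 4 without both libraries (1244 of 18341). They were 0 to 3 with 1 library left out. Shares of all genes were not counted for runs with 1 library left out, here or below. With HDM201 in IR cells, 10 were lower, but 22 with library totals (3354 of 18151 genes) and 7 to 10 with 1 library left out. In the same comparison 1 was higher, but 0 at an adjusted p under 0.01, with library totals, without a filter and with the compared groups only, and 0 to 2 with 1 library left out. There, leaving out both outlying libraries also added E2F8 (-0.80, adjusted p = 0.0459) and POLD1 (-0.34, 0.0267) as lower and ended CHAF1A (0.0708), where 2501 of 18341 genes were lower. With RG7388 in IR cells, 30 were lower, 25 at an adjusted p under 0.01 or without a filter (1696 of 50920 genes), 36 with library totals (3740 of 18151) and 31 with DESeq2 (2370 of 18149). They were 32 to 33 with limma (2908 and 2698 of 18052, and 2423 of 14235 with the FPKM filter), and 25 to 28 with 1 library left out. In that comparison, leaving out both outlying libraries added MCM5 (adjusted p = 0.00741), CHAF1B (0.0425) and POLD1 (0.0145) as lower and ended RFC4 (0.0567), where 2475 of 18341 genes were lower. Between compounds in IR cells, 5 were lower, but 3 at an adjusted p under 0.01, 9 with library totals (50 of 18151 genes), 0 with the compared groups only (0 of 16106) and 11 with DESeq2 (89 of 16038). With limma they were 1 and 2 at pseudocounts 1 and 0.1 (7 and 22 of 18034) and 0 with the FPKM filter (4 of 14229). They were 18 without both libraries (182 of 18341) and 0 to 5 with 1 library left out. By state, RG7388 gave 10 lower, but 17 with library totals (1502 of 18151 genes), 6 without a filter (837 of 50920) and 7 to 10 with 1 library left out. Without both outlying libraries, where 1363 of 18341 genes were lower, 5 more members were called lower for RG7388 by state. These were LIG1 (adjusted p = 0.0377), MCM10 (0.0445), MCM4 (0.0335), ORC1 (0.0425) and PRIM1 (0.0329). HDM201 gave 4 lower, but 2 at an adjusted p under 0.01 and 3 to 6 with 1 library left out. It gave 0 higher, but 2 without both libraries and 0 to 1 with 1 library left out. Without both libraries 1542 of 18341 genes were called higher, so the 2 members are not above that share. In that run, where 1779 of 18341 genes were called lower, CDC45 (adjusted p = 0.0267) and LIG1 (0.00859) were added as lower for HDM201. The 2 higher were MCM6 (0.0447) and RFC3 (0.0288).

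Same-numbered libraries did not deviate together: 9 of 45 pairs had a correlation over 0.1 (range -0.206 to 0.187) and 8 of 18 libraries correlated best with their own number, so the numbers were not read as pairing. With the replicate block the counts were 42 lower after irradiation, 30 with RG7388 and 8 with HDM201 in IR cells, 5 between compounds, and 10 and 4 by state. Under the block E2F8 was gained in Prolif cells with RG7388 (adjusted p = 0.0499), CCNE2 was lost (0.0536) and RFC2 gained (0.0391) in IR cells with RG7388, and CHAF1A (0.0550) and PRIM1 (0.05002) were lost with HDM201. E2F2 and E2F8 lie near or under 1 CPM in IR cells, where depth limits them most.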
